A study of Mus musculus with 6 samples.

Results

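Genes that mark the endothelium, 10 in all, were followed in sorted mesenchyme of the thoracic wall at E10.5. They were Kdr, Flt1, Tek, Tie1, Cdh5, Pecam1, Emcn, Eng, Esam and Tal1, taken by symbol from the deposited gene table, where they were 10 of 49585 genes. RNA had been sequenced from 6 libraries of embryos labelled C57BL/6 (the methods name the substrain C57BL/6NCrSlc), 3 from Prx1-Cre Ebf3 flox/+ embryos (heterozygous) and 3 from Prx1-Cre Ebf3 flox/flox embryos (KO). Both genotypes carried Prx1-Cre and the R26R-Tdtomato reporter, so the control cells had also lost 1 copy of Ebf3 where Cre was active. Prx1-Cre is driven by a limb and body wall enhancer of Prrx1 and marks lateral plate mesenchyme, and Tdtomato-positive cells (LPMs) were sorted from thoracic walls after limb buds, heart and other organs of the trunk had been removed. The labels do not say whether each library came from 1 embryo or from several.

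Endothelial cells line blood vessels. They grow in response to VEGF, which acts through the receptor tyrosine kinases encoded by Kdr and Flt1, and new vessels are then stabilised by angiopoietins acting through the receptor encoded by Tek. Endothelial cells are held to each other by the junction proteins of Cdh5, Pecam1 and Esam, and their early precursors, shared in part with blood, need the transcription factor of Tal1. In the thoracic wall these vessels run through the mesenchyme that was sorted.

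ETS factors bind a GGAA core and are known for their part in endothelial gene expression, so promoters of members were searched for ETS letters. RefSeq promoters on GRCm38.p6 were at hand for 7 of the 10 members, as 8 entries, each running from 250 bases before to 50 bases after the start. The 250 bases before the start are shown for Kdr, Flt1 and Eng, which hold AGGAAG or CCGGAA, and for Tek, which holds neither. The Tek window does hold the GGAA core on the opposite strand. Tek was shown because its counts across the libraries were the least like those of the other members tested. A link between that and the letters was not tested. All windows are written 5′ to 3′ on the strand of the gene, with ETS matches (AGGAAG or CCGGAA, either strand) in capitals. They lie at chr5:75978456-75978705 on the minus strand (Kdr), chr5:147726012-147726261 on the minus strand (Flt1), chr2:32646345-32646594 on the plus strand (Eng) and chr4:94739039-94739288 on the plus strand (Tek).
Kdr: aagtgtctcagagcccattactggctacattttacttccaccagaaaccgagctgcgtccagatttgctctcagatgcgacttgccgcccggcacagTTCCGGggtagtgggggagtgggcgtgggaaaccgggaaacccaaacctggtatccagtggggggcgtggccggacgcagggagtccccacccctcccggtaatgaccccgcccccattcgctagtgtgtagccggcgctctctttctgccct
Flt1: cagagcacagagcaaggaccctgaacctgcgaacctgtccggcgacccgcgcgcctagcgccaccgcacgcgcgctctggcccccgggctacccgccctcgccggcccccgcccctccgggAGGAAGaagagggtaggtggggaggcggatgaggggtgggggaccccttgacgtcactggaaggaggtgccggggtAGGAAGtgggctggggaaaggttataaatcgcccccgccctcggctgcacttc
Eng: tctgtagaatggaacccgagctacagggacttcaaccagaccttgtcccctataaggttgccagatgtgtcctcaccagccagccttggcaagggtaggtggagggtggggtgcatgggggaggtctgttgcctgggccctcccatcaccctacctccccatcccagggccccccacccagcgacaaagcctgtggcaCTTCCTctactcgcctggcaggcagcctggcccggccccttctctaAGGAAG
Tek: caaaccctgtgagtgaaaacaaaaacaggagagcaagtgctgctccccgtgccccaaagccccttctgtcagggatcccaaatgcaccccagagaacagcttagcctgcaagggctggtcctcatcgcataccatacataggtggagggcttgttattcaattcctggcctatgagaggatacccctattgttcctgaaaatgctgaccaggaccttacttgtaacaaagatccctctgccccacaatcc

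AGGAAG on either strand was found in 4 of the 8 member entries (Emcn, Eng, Flt1 and Tie1) and in 35.4% of all 32851 RefSeq promoters of the same length. CCGGAA was found in 1 of 8 (Kdr) and in 14.9% of all promoters. One or the other ETS motif was thus held by 5 of 8 entries, against 45.2% of all, and no AGGAAG match overlapped a CCGGAA match in the sequences shown. The GATA letters AGATAA were found in 2 of 8 entries (Tek and Tal1) and in 11.2% of all promoters. The EBF palindrome, TCCC and GGGA set apart by 2 bases of any kind, was found in 0 of 8 entries and in 0.904% of all. These are matches of letters in a short window, and they carry no measurement of binding.

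Gene counts came to between 2088091 and 3525565 per library. Ebf3, the targeted gene, lay at 94.6, 98.6 and 106 CPM in heterozygous libraries 1 to 3 and at 74.0, 43.1 and 60.7 CPM in KO libraries 1 to 3, lower in each KO library than in any heterozygous one. The allele loses only the exons between its loxP sites, so counts over the whole gene do not show how complete the deletion was. CPM is the usual depth-scaled count, here scaled by library size and by the TMM factor, which corrects for composition. Among 10 lateral plate mesenchyme markers, Twist1 (241 to 293 CPM) and Pdgfra (656 to 979 CPM) were high in all 6 libraries. Prrx1 lay at 185 CPM in KO library 3 and at 290 to 340 CPM in the other libraries. Twist2 (6.34 to 14.4 CPM), Foxf1 (6.39 to 17.65 CPM) and Osr1 (2.13 to 33.65 CPM) were far lower. Per length, Prrx1, Twist1 and Pdgfra averaged 6.28, 40.4 and 20.6 RPKM (the deposited values, scaled for gene length and mapped reads). The highest member average was 1.77 RPKM, for Tek.

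All 10 endothelial markers were present at a low level. By mean RPKM over the 6 libraries the order was Tek (1.77), Cdh5 (1.73), Kdr (1.35), Pecam1 (0.745), Eng (0.564), Flt1 (0.547), Tie1 (0.429), Esam (0.318), Emcn (0.189) and Tal1 (0.127). The median over the 10891 genes that met the count minimum (10 counts or more in 3 or more libraries) was 2.33 RPKM, above every member. Tek was above 41.1% of those genes and Tal1 above 0.670% of them. Neighbours in this order were not separated, since the ranges over the 6 libraries of Tek (0.699 to 3.34 RPKM), Cdh5 (0.483 to 4.56 RPKM) and Kdr (0.430 to 3.17 RPKM) overlapped. The 10 genes together took 0.0147%, 0.00744% and 0.0239% of gene counts in heterozygous libraries 1 to 3 and 0.0171%, 0.00886% and 0.0301% in KO libraries 1 to 3.

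Between genotypes, no endothelial marker was called. Of the 10 members, 7 passed the count minimum and could be tested, and Emcn, Esam and Tal1 fell under it. With edgeR's quasi-likelihood test and Benjamini-Hochberg adjustment over all 10891 genes, 0 of the 7 passed an adjusted p of 0.05 (background 0.0% of all genes tested, 0 genes). At an unadjusted p up to 0.05 the count was 0 of 7, against 2.15% of all genes tested (234 genes), or 1.38% in the higher and 0.771% in the lower direction. The fitted fold change was positive for 6 of the 7, against 50.2% of all genes tested. Among these, Eng had the lower mean CPM in KO (8.74 against 8.86 in heterozygous), and its sign turned under 6 alternative settings. Without KO library 3 the fold changes of Kdr, Tie1 and Cdh5 were negative as well. DESeq2 and limma-voom likewise called 0 members at either threshold, beside 125 and 250 genes of all at the unadjusted one. Levels of all 10 members overlapped between genotypes, so 0 of 10 were separated, where 7.46% of all genes tested were. The median log2 fold change of KO over heterozygous was 0.31 over the 7 members and 0.00 over all genes tested, and the members' median turned to -0.43 without KO library 3, to -0.06 without heterozygous library 2 and rose to 1.01 without heterozygous library 3. A lack of calls does not show equal levels, as the standard errors ran from 0.36 to 0.57 on the log2 scale.

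Kdr encodes the main signalling receptor for VEGF (VEGFR2) and is among the first genes switched on in endothelial precursors. The gene lies at chr5:75932827-75978458 on the minus strand (GRCm38). It was counted at 37.8, 19.1 and 63.5 CPM in heterozygous libraries 1 to 3 and at 52.5, 22.8 and 83.3 CPM in KO libraries 1 to 3. Library 3 was the highest and library 2 the lowest in both genotypes, and the genotypes overlapped. Exact Poisson 95% intervals for counting error alone were 14.0 to 25.4 CPM in heterozygous library 2 and 53.7 to 74.5 CPM in heterozygous library 3. These are the lowest and highest libraries of that genotype. Their intervals did not meet, but they may be too narrow, as PCR copies were not told from separate molecules. Mean levels were 40.1 ± 22.3 CPM in heterozygous and 52.9 ± 30.2 CPM in KO LPMs (SD, n = 3 each), a log2 fold change of 0.44 (SE 0.44, adjusted p of 1.0 in edgeR). Without KO library 3 it was -0.070 and without heterozygous library 3 it was 0.90.

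Flt1 encodes VEGFR1, which binds VEGF tightly and limits what reaches Kdr. It lies at chr5:147561604-147726011 on the minus strand. Its levels were 16.3, 7.05 and 36.6 CPM in heterozygous libraries 1 to 3 and 36.4, 15.4 and 38.6 CPM in KO libraries 1 to 3. KO libraries 1 and 3 lay close to heterozygous library 3, and KO library 2 stayed under heterozygous library 1. Means were 20.0 ± 15.1 CPM in heterozygous and 30.1 ± 12.8 CPM in KO LPMs (SD, n = 3 each). The log2 fold change of 0.63 (SE 0.47, adjusted p of 1.0 in edgeR) was the highest of the 7 members tested, and it stayed above 0 without any 1 library, from 0.24 without heterozygous library 2 to 1.35 without heterozygous library 3.

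Tek encodes TIE2, the angiopoietin receptor, and lies at chr4:94739289-94874976 on the plus strand. It was counted at 55.9, 20.7 and 25.1 CPM in heterozygous libraries 1 to 3 and at 31.4, 19.3 and 40.3 CPM in KO libraries 1 to 3. Here heterozygous library 1, not library 3, was the highest, and all 3 KO libraries lay below it. Means were 33.9 ± 19.2 CPM and 30.3 ± 10.51 CPM in heterozygous and KO LPMs (SD, n = 3 each). The 95% counting interval of heterozygous library 1, 48.1 to 64.6 CPM, did not meet that of heterozygous library 3, 19.1 to 32.4 CPM. The log2 fold change was -0.16 (SE 0.36, adjusted p of 1.0 in edgeR), the only negative value among the members tested, and it was 0.43 without heterozygous library 1 and -0.43 without KO library 3.

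Tie1 encodes an orphan receptor that pairs with TIE2, and it lies at chr4:118471191-118490061 on the minus strand. Its levels were 4.61, 4.14 and 14.5 CPM in heterozygous libraries 1 to 3 and 5.37, 4.46 and 15.4 CPM in KO libraries 1 to 3. Both libraries numbered 3 stood above the other 4. With means of 7.74 ± 5.84 CPM and 8.43 ± 6.10 CPM (SD, n = 3 each), the log2 fold change was 0.22 (SE 0.57, adjusted p of 1.0 in edgeR). It was -0.06 without heterozygous library 1 or 2, 1.01 without heterozygous library 3 and -0.62 without KO library 3.

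Cdh5 encodes VE-cadherin, the adhesion protein of endothelial junctions, and lies at chr8:104101625-104144511 on the plus strand. It was counted at 18.4, 8.70 and 48.5 CPM in heterozygous libraries 1 to 3 and at 17.4, 16.4 and 55.7 CPM in KO libraries 1 to 3. The 2 libraries numbered 3 were again the highest, with counting intervals of 40.0 to 58.3 CPM and 48.3 to 63.9 CPM, above those of the lowest libraries of their genotypes (5.39 to 13.3 CPM and 11.3 to 23.0 CPM). Means were 25.2 ± 20.8 CPM in heterozygous and 29.8 ± 22.4 CPM in KO LPMs (SD, n = 3 each). The log2 fold change was 0.31 (SE 0.56, adjusted p of 1.0 in edgeR), and it was -0.56 without KO library 3 and 1.15 without heterozygous library 3.

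Pecam1 encodes CD31, an adhesion protein of endothelium and platelets, and lies at chr11:106654217-106750628 on the minus strand. Its levels were 5.84, 4.56 and 20.4 CPM in heterozygous libraries 1 to 3 and 14.5, 5.45 and 23.4 CPM in KO libraries 1 to 3. Library 2 was the lowest in both genotypes, and KO library 1 lay between the others. Means were 10.3 ± 8.82 CPM and 14.5 ± 8.99 CPM (SD, n = 3 each). The log2 fold change was 0.58 (SE 0.57, adjusted p of 1.0 in edgeR), 0.01 without KO library 3 and 1.51 without heterozygous library 3.

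Eng encodes endoglin, a co-receptor for TGF-beta and BMP ligands, and lies at chr2:32646595-32682669 on the plus strand. It was counted at 4.61, 6.63 and 15.3 CPM in heterozygous libraries 1 to 3 and at 7.02, 3.47 and 15.7 CPM in KO libraries 1 to 3. Its means of 8.86 ± 5.70 CPM and 8.74 ± 6.30 CPM (SD, n = 3 each) were nearly the same, with a log2 fold change of 0.08 (SE 0.55, adjusted p of 1.0 in edgeR). It was -0.70 without KO library 3 and 0.73 without heterozygous library 3. Eng overlaps Fpgs on the opposite strand, which had 70, 52 and 73 counts in heterozygous libraries 1 to 3 and 46, 32 and 92 in KO libraries 1 to 3, and whether the counting used strand is not given in the sources used here.

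Emcn, Esam and Tal1 were under the count minimum and are given as counts. Emcn encodes endomucin, a sialomucin of veins and capillaries, and lies at chr3:137341067-137432185. It had 3, 2 and 16 counts in heterozygous libraries 1 to 3 and 7, 4 and 34 in KO libraries 1 to 3. Library 3 held most of the counts in each genotype, and the genotypes overlapped. Means were 2.85 ± 3.43 CPM in heterozygous and 4.75 ± 4.03 CPM in KO LPMs (SD, n = 3 each), a ratio of 1.66 that was 0.854 without KO library 3 and 5.43 without heterozygous library 3.

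Esam encodes an adhesion protein of tight junctions (chr9:37528078-37538319) and had 8, 8 and 19 counts in heterozygous libraries and 5, 1 and 18 in KO libraries. Means were 4.62 ± 3.04 CPM and 2.51 ± 2.27 CPM (SD, n = 3 each), a ratio of 0.543 that ran from 0.277 without KO library 3 to 0.869 without heterozygous library 3. Tal1, which encodes a transcription factor of blood and endothelial precursors (chr4:115056426-115071755), had 0, 0 and 10 counts in heterozygous libraries and 2, 4 and 20 in KO libraries. Means were 1.42 ± 2.46 CPM and 2.78 ± 2.44 CPM (SD, n = 3 each), a ratio of 1.96 that was 0.990 without KO library 3, which held 20 of the 26 KO counts. In heterozygous libraries 1 and 2 the 0 counts allow levels up to 1.13 and 1.53 CPM, the upper ends of the exact Poisson 95% intervals. Such intervals leave out the spread between samples, and PCR copies were not told from separate molecules, so they may be too narrow.

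**Figure D1:**
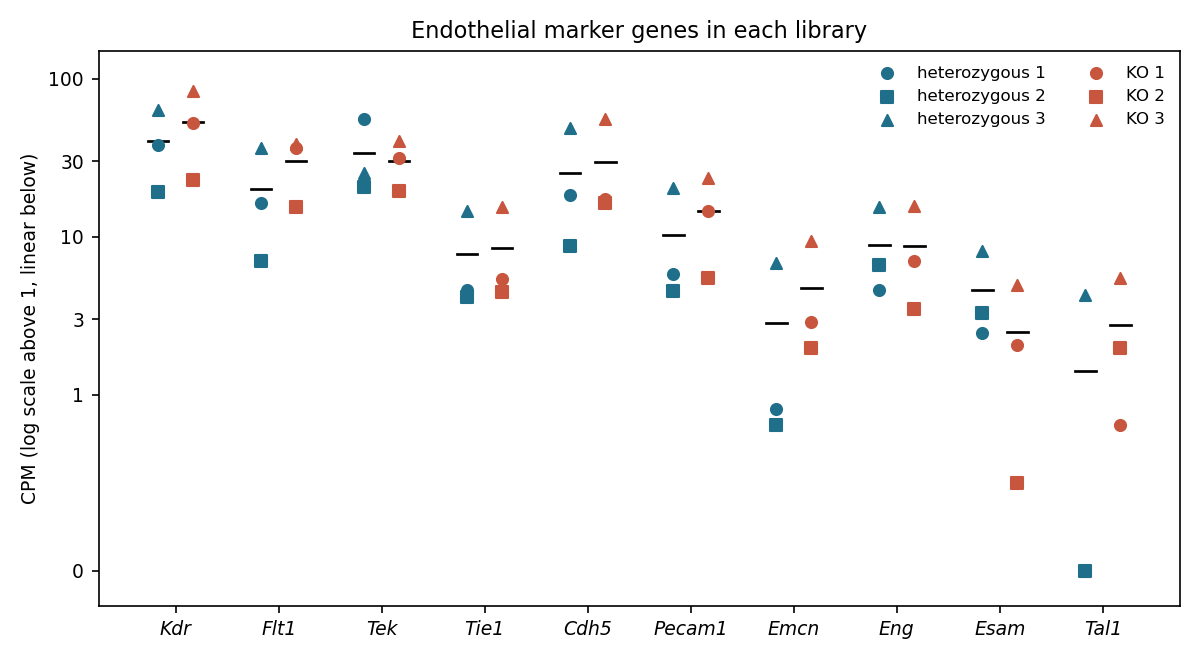
CPM of the 10 endothelial markers in each library (log axis, linear below 1), one column per gene, with heterozygous and KO libraries 1 to 3 as separate points and black bars at the mean of each genotype. Both libraries numbered 3 sit high for most genes, such as Kdr at 63.5 and 83.3 CPM, and Tek is highest in heterozygous library 1 at 55.9 CPM.

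The summed level varied widely between libraries of 1 genotype, and the genotypes overlapped. The summed level of the 10 members was 147, 75.0 and 243 CPM in heterozygous libraries 1 to 3 and 170, 91.7 and 292 CPM in KO libraries 1 to 3. Library 3 was the highest and library 2 the lowest of each genotype. The highest was 3.24 times the lowest in heterozygous and 3.19 times in KO LPMs. These set single libraries against each other and are not of a kind with a ratio of means. The mean was 155 ± 84.4 CPM in heterozygous and 185 ± 101 CPM in KO LPMs (SD, n = 3 each), a ratio of 1.19. That ratio was 0.845 without KO library 3, 0.948 without heterozygous library 2 and 1.67 without heterozygous library 3. In bulk samples of this kind, a change in the share of endothelial cells and a change in their RNA per cell cannot be told apart.

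**Figure D2:**
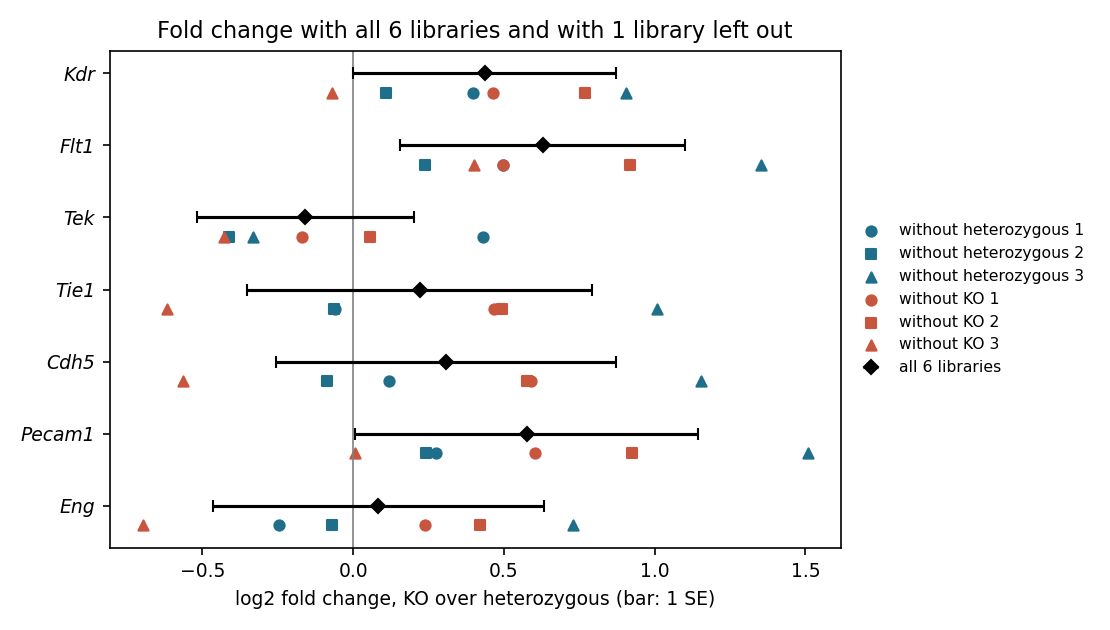
Log2 fold change of KO over heterozygous (horizontal axis) for the 7 members tested, with black diamonds and bars for the value and 1 SE from all 6 libraries and coloured points for the value with 1 library left out. The value without KO library 3 is the lowest for every gene but Flt1, and that without heterozygous library 3 the highest for every gene but Tek.

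The high level of library 3 was shared by most members. Within the heterozygous libraries, library 3 was the highest for 9 of 10 members (all but Tek), where 31.7% of all genes tested were. Within the KO libraries, library 3 was the highest for 10 of 10, against 30.3% of all. Both held for 9 of 10, against 9.69% of all. The members were picked for being 1 cell type, and counts over them are not independent replicates. Likeness to the mean profile of the members, as the root mean square difference of z-scored log2 CPM over the 6 libraries, had a median of 0.361 over the 7 members, who enter that mean, and 1.29 over all genes. Kdr, at 0.151, was the third closest of all 10891 genes, while Tek, at 0.953, was the 1869th.

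The proportion of Tek to Kdr varied between libraries of 1 genotype. Counts of Tek relative to those of Kdr were 1.48 (exact 95% interval 1.17 to 1.88 for counting error) in heterozygous library 1 and 1.09 (0.714 to 1.66) in heterozygous library 2. They were 0.396 (0.288 to 0.539) in heterozygous library 3. In KO libraries 1 to 3 the ratio was 0.598 (0.444 to 0.801), 0.848 (0.539 to 1.33) and 0.483 (0.394 to 0.591). Ratios of counts depend on gene length and are compared here only across libraries. The intervals of heterozygous libraries 1 and 3, picked as the highest and the lowest of the 6, did not meet. Such intervals may be too narrow, as PCR copies were not told apart, and they say nothing of the genotypes. Tek made up 38.1%, 27.6% and 10.3% of member counts in heterozygous libraries 1 to 3 and 18.5%, 21.1% and 13.8% in KO libraries 1 to 3. Cdh5 relative to Kdr was 0.331 (0.228 to 0.472) in KO library 1 and 0.669 (0.557 to 0.802) in KO library 3.

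**Figure D3:**
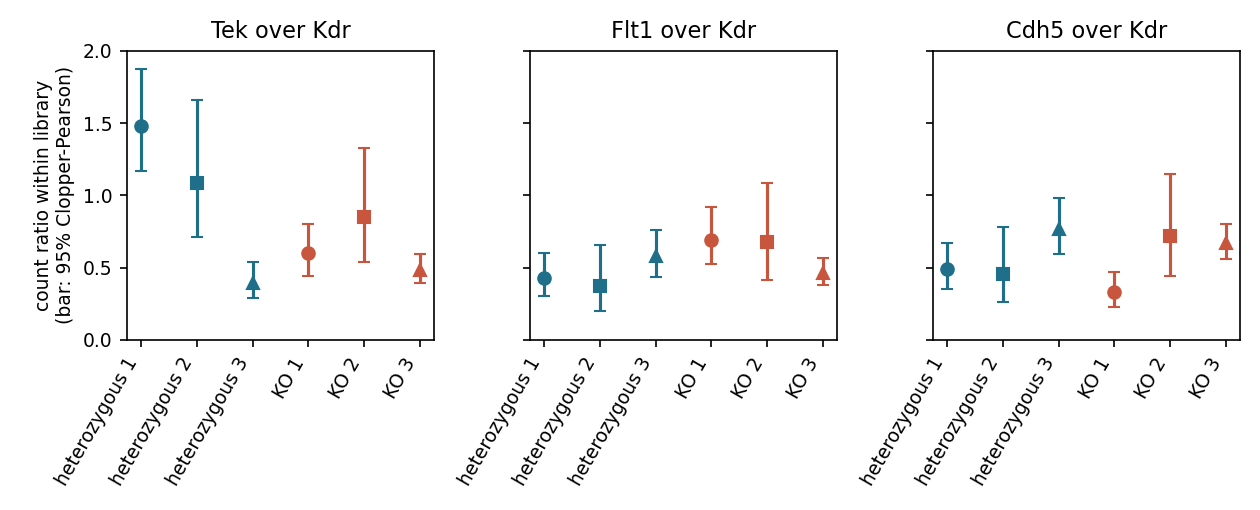
Ratios of the counts of Tek, Flt1 and Cdh5 to those of Kdr (vertical axis, no unit) within each library, with exact 95% intervals for counting error. Tek over Kdr is 1.48 in heterozygous library 1 and 0.396 in heterozygous library 3, and the 3 KO libraries lie between them.

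The genes outside the members and lists whose profile was closest to that of the members were Mmrn1, Plxnd1, Plekhg1, Stx1a, Fzd4, Loxl1, Prss23 and Bmp1 (root mean square difference 0.0610 to 0.255 over 6 libraries, a description with no test). Mmrn1, which encodes multimerin 1 of platelets and endothelium, lay at 3.99, 1.24 and 10.2 CPM in heterozygous libraries 1 to 3 and at 5.37, 1.98 and 13.5 CPM in KO libraries 1 to 3. Plxnd1, a semaphorin receptor of vessels, lay at 63.9, 43.5 and 107 CPM and at 72.7, 51.6 and 99.8 CPM. In all 8 genes, library 3 was the highest and library 2 the lowest of its genotype, the order seen for Kdr. The members' mean profile, by which these genes were picked, has that order too, so it follows from the choice. Genes of the lists that follow ranked close too, and not only those of vessels. Stab1 was 2nd and Aplnr 13th, while Elavl4 of the neural list was 9th. Wt1 of the epithelial and mesothelial list was 40th and Alb of the hepatic list 43rd.

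Other genes of the endothelial pathway were read in the same fit, and 0 genes of any list passed an adjusted p of 0.05. Of 29 other endothelial genes, mostly of surface and junctions, 17 were tested, of which 15 had a positive log2 fold change and 2 a negative one (median 0.29). Library 3 of both genotypes was the highest for 13 of these 17. Those of smallest p were Calcrl (0.62), S1pr1 (0.52), Stab1 (0.69) and Vwf (0.67), with unadjusted p of 0.206, 0.244, 0.293 and 0.363 in edgeR. Tmem204 had 0 counts in every library. Sox17, a transcription factor under the count minimum, was listed here and among the endothelial transcription factors too.

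Ligands and co-receptors of these pathways were measured too, with 10 of 14 tested genes (of 17 listed) positive and a median of 0.13. Vegfd, a ligand of the VEGF family, lay at 5.22, 12.9 and 8.94 CPM in heterozygous libraries 1 to 3 and at 2.89, 5.95 and 0.827 CPM in KO libraries 1 to 3. KO library 2 exceeded heterozygous library 1. In edgeR this came to -1.59 on the log2 scale (SE 0.60), where the adjusted p was 1.0 and the unadjusted one 0.0224. Flt4 (0.62), Aplnr (0.73) and Angpt1 (0.16) had unadjusted p of 0.160, 0.188 and 0.355. Vegfa, the main ligand of Kdr and Flt1, lay between 133 and 180 CPM in all 6 libraries.

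Endothelial transcription factors, 12 of 20 tested, were divided evenly, 6 positive and 6 negative (median 0.03). Ets2 lay at 133, 148 and 98.8 CPM in heterozygous libraries 1 to 3 and at 95.03, 91.2 and 91.8 CPM in KO libraries 1 to 3, all KO libraries under all heterozygous ones. In edgeR Ets2 came to -0.45 on the log2 scale (SE 0.16), where the adjusted p was 1.0 and the unadjusted one 0.0152. Elk3 (-0.31), Ets1 (0.19) and Fli1 (-0.24) had unadjusted p of 0.202, 0.229 and 0.276. Arterial and Notch genes had 9 of 15 tested, 4 positive and 5 negative (median -0.06). Efnb2 (0.29) and Notch1 (0.55) among them had unadjusted p of 0.0862 and 0.109.

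Markers of other cell types stood beside these values, and their part in the members' values was not tested. Pericyte and mural markers had 8 of 11 tested, 7 positive and 1 negative, with summed levels of 617, 477 and 571 CPM in heterozygous libraries 1 to 3 and 857, 479 and 562 CPM in KO libraries 1 to 3. Abcc9, a channel subunit, came to 1.25 on the log2 scale (SE 0.50), where the adjusted p was 1.0 and the unadjusted one 0.0286 in edgeR. It lay at 3.07, 3.73 and 2.98 CPM in heterozygous libraries 1 to 3 and at 13.2, 6.45 and 4.14 CPM in KO libraries 1 to 3. KO library 1 was thus well above the rest. Primitive erythroid markers had 0 of 14 tested, with summed levels of 1.23, 7.46 and 0.426 CPM and 1.65, 4.96 and 27.9 CPM. KO library 3 was the highest, where Hba-x and Hbb-y, both embryonic globins, had 27 and 32 counts and Gata1, the erythroid master factor, had 1. Haematopoietic markers had 3 of 15 tested, all positive, with summed levels of 37.5 to 49.8 CPM and 28.8 to 62.8 CPM. Runx1 (0.25), Myb (0.12) and Kit (0.05), the 3 tested, had unadjusted p of 0.559, 0.758 and 0.849. Among those under the minimum, Ptprc, which defines white cells, had 0 to 3 counts in every library. Pf4, a platelet gene, had 0, 0 and 0 counts in heterozygous libraries 1 to 3 and 4, 0 and 17 in KO libraries 1 to 3. KO library 3 also held 11 counts of Itga2b, 9 of Lyz2 and 9 of Csf1r, where no other library had over 4 of any of them. It was the deepest library, at 3525565 gene counts, and other genes of this list went another way. Cd68 had 10 counts in KO library 1 and 4 in KO library 3. Tyrobp and Gp9 had 0 in KO library 3.

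Hepatic markers, 4 of 6 tested and all positive, summed to 38.4, 29.0 and 73.7 CPM in heterozygous libraries 1 to 3 and to 99.6, 8.92 and 266 CPM in KO libraries 1 to 3. Within each genotype this was the order of the endothelial sum, with library 3 the highest and library 2 the lowest, but not across all 6 libraries. Cardiac markers, 5 of 7 tested and all positive, summed to 402, 17.4 and 299 CPM and to 1650, 189 and 79.4 CPM, with another order. Lateral plate markers, 10 of 10 tested, summed to 1714 to 1891 CPM and to 1515 to 1828 CPM, with 3 positive and 7 negative. Foxf1 (0.96), Osr1 (1.304) and Hand2 (-0.42) among them had unadjusted p of 0.0160, 0.0366 and 0.0452. Of the rest, muscle precursor markers had 1 of 7 tested (positive), neural markers 2 of 9 (both positive) and epithelial and mesothelial markers 6 of 9 (4 positive and 2 negative). Nefl, a neurofilament gene of the neural list, lay at 6.76, 2.49 and 6.39 CPM in heterozygous libraries 1 to 3 and at 13.6, 13.4 and 26.2 CPM in KO libraries 1 to 3, all KO libraries above all heterozygous ones. It came to 1.77 on the log2 scale (SE 0.41), where the adjusted p was 1.0 and the unadjusted one 0.00113 in edgeR. Without both libraries numbered 3, a choice made after seeing the data, the members' summed ratio was 1.18 and their median log2 fold change 0.29.

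**Figure D4:**
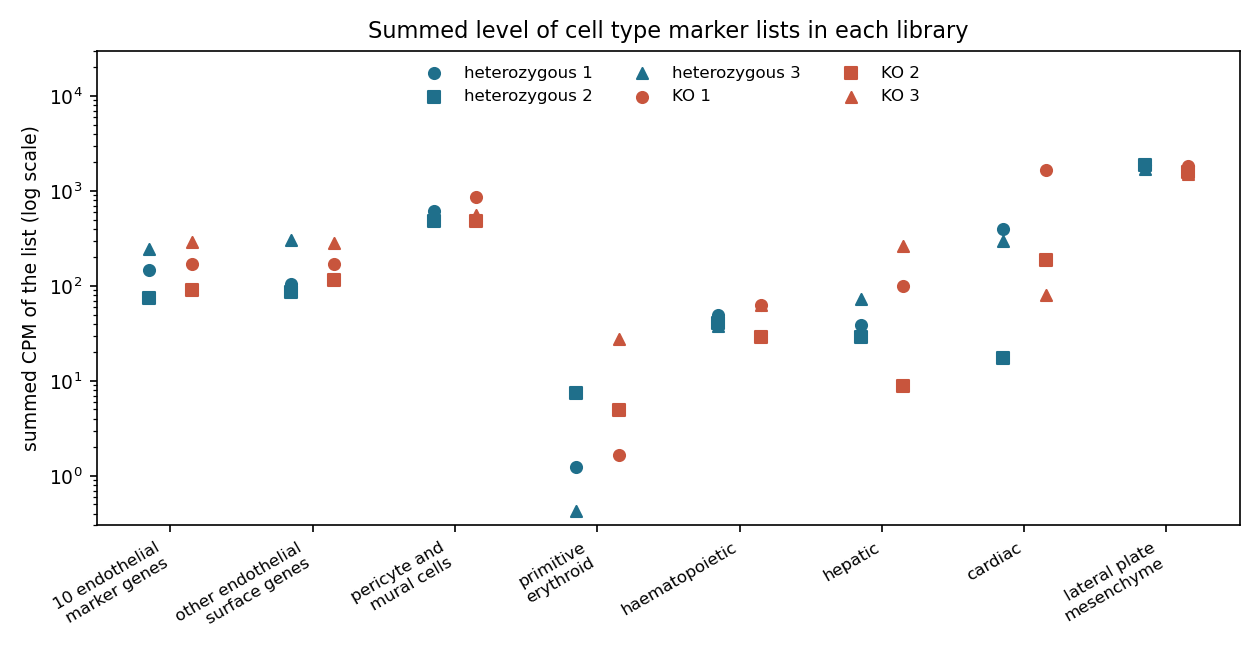
Summed CPM of marker lists in each library (log axis), one column per list, with heterozygous and KO libraries 1 to 3 as separate points. The endothelial sum runs from 75.0 to 292 CPM, under the lateral plate sum of 1515 to 1891 CPM in every library.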

How the data were processed

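LPMs of 3 heterozygous and 3 KO embryo samples were sorted by Tdtomato, and SMARTer libraries of their RNA were read on a NextSeq500. Mapping and counting were done by the authors in CLC against Ensembl genes, and they deposited raw counts per gene and RPKM, scaled for gene length and mapped reads. The gene coordinates in the deposited table have another unit, bases, and were made by the authors' annotation. The submitters' processing notes name mm9 and the methods mm10. Of 10656 tested genes with 1 GENCODE M21 entry, 91.7% had the same start or end, so GRCm38 was used. The authors' own p-values, fold changes and gene list were not used.

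A minimum of 10 counts in 3 or more libraries left 10891 genes. These went into the quasi-likelihood test of edgeR 4.0.16 under R 4.3.3, with TMM factors (0.970 to 1.04), no term but genotype and Benjamini-Hochberg adjustment, called at 0.05. The biological coefficient of variation came to 0.173, and the pipeline was tested on simulated data. Counting intervals are exact (95%) and cover counting error only. Nothing says that replicates are separate embryos, so p-values measure the spread between these samples, which may be technical. Alternatives were DESeq2 1.42.0, limma-voom (limma 3.58.1), library size alone, upper quartile factors, no count filter, 10 counts in every library, a replicate block, deposited RPKM as log2 with a pseudocount of 0.1, and leaving out each library. Leaving out both libraries numbered 3, and each library for the 3 members under the minimum, was chosen after seeing the data.

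The members and lists were chosen with earlier results of these data known. Named were all members, up to 4 genes of smallest p in a list, 3 lineage genes and the 8 genes of closest profile. Genes named beside them (Vegfa, Tmem204, Sox17, Hba-x, Hbb-y, Gata1, Ptprc, Pf4, Itga2b, Lyz2, Csf1r, Cd68, Tyrobp, Gp9, Klf4, Erg, Gata2 and Fpgs) were chosen after their values were seen. Python 3.11.15 and pandas 2.3.3 handled the tables.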

Additional observations from a re-analysis of the deposited data

How the results depend on the processing

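The count of members past the adjusted threshold was 0 under every alternative run. Over all genes the count, 0 in the reported fit, was 38 with no count filter, 2 with the replicate block, 5 on deposited RPKM, and 0 to 1 without single libraries. Genes at an unadjusted p up to 0.05, 234 as reported, were 125 with DESeq2, 571 with no filter, 493 with the replicate block, 61 on RPKM, 127 to 756 without single libraries and 126 without both libraries numbered 3. Members at that p were 0 as reported. With no filter they were 2 (Flt1 and Kdr), beside 571 of 18119 genes. The replicate block gave 2 (Flt1 and Kdr), beside 493 of 10891 genes. Without single libraries they were 0 to 2. The 2 were Flt1 and Pecam1 without heterozygous library 3, beside 241 of 10762 genes. Without both libraries numbered 3 there was 1 (Flt1), beside 126 of 10357 genes. The members' median log2 fold change, 0.31, ran from -0.43 to 1.01 without single libraries. The cause was not tested.

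Of 103 log2 fold changes of members under alternatives, 14 turned sign. Without single libraries Kdr ran from -0.070 to 0.90, Tek from -0.43 to 0.43, Tie1 from -0.62 to 1.01, Cdh5 from -0.56 to 1.15 and Eng from -0.70 to 0.73. Eng was also -0.019 with the replicate block, -0.048 on RPKM and -0.052 without both libraries numbered 3. Flt1 and Pecam1 turned under none.

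Replicate numbers were not taken as pairs, as the labels do not say what same-numbered samples share. Deviations of same-numbered samples correlated at 0.43, 0.20 and 0.01 over 10891 genes. Heterozygous library 1 correlated less with KO libraries 2 and 3 (-0.338 and -0.109). Heterozygous library 2 correlated less with KO libraries 1 and 3 (-0.272 and 0.092). Heterozygous library 3 correlated more with KO library 2 (0.13). Depth limits Emcn, Esam and Tal1, at 1 to 34 counts where detected.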

Other observations

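Klf2, a transcription factor of endothelium that responds to flow, was under the count minimum and was picked after its values were seen. It had 2, 4 and 7 counts in heterozygous libraries 1 to 3 and 7, 6 and 43 in KO libraries 1 to 3. KO library 3 was the deepest, and scaled for depth Klf2 lay there at 11.9 CPM, against 0.614 to 2.98 CPM in the other 5. Other genes of its list went either way. Ets1 and Klf4 were also highest in KO library 3 (105.9 and 22.1 CPM). Erg, Fli1 and Gata2 were highest in heterozygous library 3 (9.37, 62.2 and 13.6 CPM). Counts of Tie1 relative to Tek were 0.0824 (exact 95% interval 0.0452 to 0.140) in heterozygous library 1 and 0.576 (0.366 to 0.894) in heterozygous library 3, and 0.171, 0.231 and 0.384 in KO libraries 1 to 3.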
